A study of Mus musculus with 48 samples.

Results

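Whole spinal cord of old mice whose microglia had been removed and allowed to return was compared with whole cord of young mice, over all genes of the deposited count table. The comparison took 16 of the 48 libraries of the series, chosen by their titles: 8 of old repopulated cord and 8 of young cord. All mice were wild type C57BL/6 males. The old repopulated group was 23 months old and had received a Csf1r inhibitor for 5 days, followed by 7 days of recovery. The young group was 3 months old and had received vehicle. Age and inhibitor therefore differ together between these groups, and their parts cannot be told apart in this comparison. A further 8 cord libraries from old mice given vehicle, also 23 months old, are set beside it, as are 16 libraries of microglia from the same treatment groups, sorted by Cd11b and Cd45 from dissociated brain rather than cord. Cords were taken after perfusion with saline and frozen whole, so every cell type of the cord, its roots and its coverings could contribute RNA. The labels do not say which libraries came from separate animals, so the p-values measure the spread between libraries.

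Microglia are the resident macrophages of the central nervous system, and they depend for survival on signals through the receptor Csf1r, whose ligands are Csf1 and Il34. An inhibitor of this receptor kills most of them, and when it is withdrawn the survivors divide and refill the tissue, which is called repopulation. In aged and damaged white matter, microglia lower their resting genes and raise a disease-associated set, among them Cst7, Itgax, Gpnmb, Clec7a and Apoe, that serves uptake and digestion of lipid-rich debris. Type I interferons act through a factor that holds Stat2 and Irf9 on a shared DNA element and raise antiviral genes in many cell types. The cord is also rich in oligodendrocytes, which make much of their own cholesterol to build myelin.

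The libraries held 23756093 to 32172147 counts in young cord and 15909868 to 33004806 in repopulated cord, and the exact two-sided permutation test of total counts gave p = 0.577 (8 against 8, adjusted p = 0.877 over 7 measures). The tissue label was checked against its markers. All 16 Hox genes listed for the cord passed the filter on low counts, and Chat, the acetylcholine-synthesising enzyme of motor neurons, stood between 6.93 and 20.2 CPM (counts relative to the scaled library size) in the 16 libraries. A pair of repopulated libraries stood apart. Repopulated library 6 had the fewest detected genes (22326, against 23269 to 24857 in the other repopulated libraries) and 1.892% of its counts in ribosomal protein genes, against 0.6799% to 0.7863% in the other 7. Repopulated library 3 carried skeletal muscle genes, a list added after the values were seen, at a sum of 3401 CPM. This sum was 6.39 to 125 CPM in the other repopulated libraries and 8.38 to 316 CPM in young cord. In old vehicle cord it reached 714 CPM, in library 8. The ribosomal share was higher in repopulated than in young cord also without library 6 (0.7151% ± 0.0368 SD, n = 7, against 0.6314% ± 0.0436, n = 8, exact permutation p = 0.00202). Genes of dorsal root ganglion neurons, which lie outside the cord, varied within each group: Scn10a, a sodium channel of pain-sensing neurons, ran from 1.96 to 592 CPM in young and from 1.60 to 269 CPM in repopulated cord. The part of these library differences in the results below was not tested. The count of all genes called and those of some lists are also given with libraries 3 and 6 left out.

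Of 18271 genes tested with edgeR's quasi-likelihood test, 1839 were called at a Benjamini-Hochberg adjusted p under 0.05, which is 10.1%. In repopulated cord 1331 were higher (7.28%) and 508 lower (2.78%). Rises were the larger changes: 33.3% of the higher genes differed at least 2-fold, against 5.71% of the lower ones. In 660 genes (3.61%) the 8 repopulated and 8 young libraries did not overlap at all, 541 of them higher (2.96%) and 119 lower (0.651%) in repopulated cord. Without libraries 3 and 6, 1995 genes were called, 1360 of them higher and 635 lower, and 1502 of these were among the 1839. The balance of the directions moved with the method, since 84.6% of called genes were higher with scaling by total count and 63.2% with DESeq2, against 72.4% here.

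**Figure D1:**
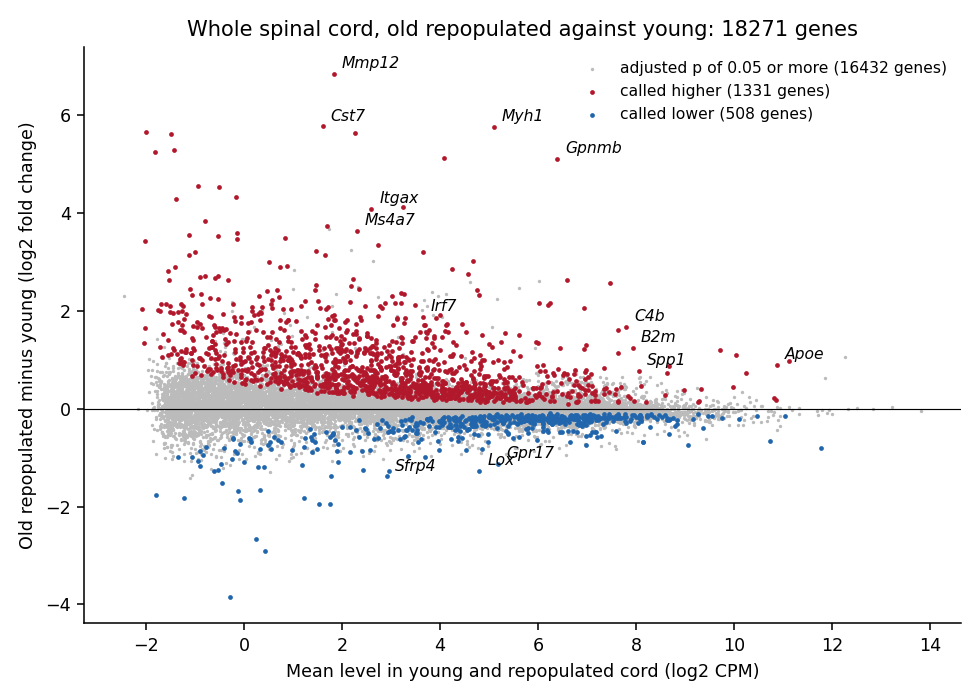
Each point is 1 of 18271 genes, with its mean level in the 16 libraries on a log2 CPM axis and its log2 fold change, old repopulated minus young, on the other. The 1331 genes called higher (red) reach log2 6.85, for Mmp12, while most of the 508 called lower (blue) lie close to the zero line.

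The 10 largest rises among called genes with at least 5 CPM in the higher group fell into 2 kinds. Mmp12, Cst7, Atp6v0d2, Gpnmb, Itgax and Ms4a7 are genes of activated macrophages and microglia. Mmp12, an elastin-cutting protease of macrophages, had a lowest, median and highest level of 0, 0.0499 and 0.184 CPM in young cord and of 4.10, 7.88 and 8.89 CPM in repopulated cord. It was the gene with the largest fold change among all those called (log2 6.85 ± 0.35 SE, adjusted p = 5.92e-13, edgeR), and 3 of the young libraries held no count of it. Atp6v0d2, a subunit of the vacuolar proton pump found in osteoclasts and macrophages, ran from 0.0425 to 0.444 CPM in young and from 5.86 to 12.9 CPM in repopulated cord (log2 5.63 ± 0.29). Ms4a7, a membrane protein of macrophages that enter or line the brain, rose by log2 3.63 ± 0.21. In each of the 6 genes every repopulated library lay above every young one.

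The other 4 of these 10 were Myh1, Myh2, Mb and Ckmt2, which encode fast myosins, the oxygen carrier myoglobin and a mitochondrial creatine kinase of skeletal muscle. Myh1 stood at 532 CPM in repopulated library 3 and at 0.0814 to 0.932 CPM in the other 7, against 0.178 to 3.48 CPM in young cord. Only 1 of the 8 repopulated libraries lay above the highest young library in each of the 4 genes. Without library 3 none of the 4 was called and each had a negative log2 value: -1.61 for Myh1, -2.59 for Myh2, -0.50 for Mb and -0.97 for Ckmt2. Their calls therefore describe 1 library.

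Genes enriched in microglia made up a large share of the rises. Of all genes tested, 5.09% were at least 4 times higher in young sorted microglia than in old vehicle cord on the TPM scale, which corrects for gene length and depth, and of the 1331 genes called higher in repopulated cord 33.5% were. The share was 45.8% among the rises of at least 2-fold, which held 203 such genes, and 1.97% among the genes called lower, 10 of 508. In bulk tissue more cells of a type and more RNA per cell cannot be told apart, here and in all that follows.

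Of the receptor the drug acts on and its relatives, 5 of 6 genes rose and none fell. Csf1r had a lowest, median and highest level of 61.3, 73.1 and 94.6 CPM in young and of 102, 121 and 137 CPM in repopulated cord, so that the groups did not overlap (log2 0.72 ± 0.08, adjusted p = 7.21e-07, edgeR). Csf1, its ligand, rose from a median of 42.8 to 59.7 CPM (log2 0.49 ± 0.06). Csf2rb, the shared signalling chain of the receptors for GM-CSF and related cytokines, rose by log2 1.60 ± 0.16, and Csf3r, the receptor for the neutrophil growth factor G-CSF, by 1.49 ± 0.12. Il34, the neuronal ligand of Csf1r, had log2 0.04 and was not called.

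Genes of resting microglia were higher as well, 13 of 20 with none lower, at a median of log2 0.66 against 0.013 over all genes tested. Aif1, the calcium-binding protein stained as Iba1, ran from 1.92 to 4.21 CPM in young and from 7.72 to 30.5 CPM in repopulated cord (log2 2.06 ± 0.24, adjusted p = 9.91e-07). Its highest value was that of library 6, without which the log2 value was 1.68. Fcrls, an Fc receptor-like gene used to mark microglia, had 9.07, 9.94 and 11.3 CPM in young and 27.2, 29.7 and 46.1 CPM in repopulated cord as lowest, median and highest (log2 1.73 ± 0.10). Cx3cr1, the fractalkine receptor, rose by 1.07 ± 0.13, with no overlap between groups. The changes were uneven within the list. Tmem119, a surface marker of resting microglia, rose by 0.55 ± 0.13 with 6 of 8 repopulated libraries above the highest young one. P2ry12, the purinergic receptor that steers microglial processes, had overlapping ranges of 14.7 to 21.8 CPM in young and 17.8 to 23.0 CPM in repopulated cord, and its difference was not called (log2 0.15, 95% interval -0.02 to 0.32, adjusted p = 0.258). Without libraries 3 and 6, 13 of 20 were higher and 1 lower, at a median of 0.47.

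The disease-associated set showed larger rises. Of 24 genes 20 were higher and none lower, at a median of log2 1.17, and in 18 of them the groups did not overlap. Cst7, which encodes the protease inhibitor cystatin F, had a lowest, median and highest level of 0, 0.0978 and 0.197 CPM in young and of 4.20, 4.78 and 12.7 CPM in repopulated cord (log2 5.77 ± 0.32, adjusted p = 2.3e-12, edgeR). Gpnmb, a transmembrane glycoprotein of lipid-laden macrophages, went from 3.23 to 6.50 CPM in young to 109 to 210 CPM in repopulated cord, with a median of 4.42 against 167 (log2 5.10 ± 0.19). Itgax, the integrin chain CD11c, had 0.202 to 1.22 CPM in young and 10.2 to 12.7 CPM in repopulated cord (log2 4.09 ± 0.22). Clec7a, the beta-glucan receptor Dectin-1, rose by 3.20 ± 0.16. The lowest repopulated library exceeded the highest young library in all 4.

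The same set holds genes that other cord cells are known to express, of which 3 are described here. Apoe, the lipid carrier that astrocytes make in quantity, had a median of 1332 CPM in young and 2051.5 CPM in repopulated cord. Its range in repopulated cord, 1841 to 5643 CPM, did not overlap the young range of 1188 to 1471 CPM, and its log2 change of 0.89 ± 0.17 was 0.60 without library 6, which held the highest value. Spp1, the secreted protein osteopontin, which motor neurons also make, rose from a median of 198 to 339 CPM (log2 0.77 ± 0.08, no overlap). Axl, a receptor for apoptotic cells, rose by 0.48 ± 0.06 from 82.4 to 100 CPM in young to 106 to 153 CPM in repopulated cord. Without libraries 3 and 6, 19 of the 24 were higher, at a median of 0.96.

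**Figure D2:**
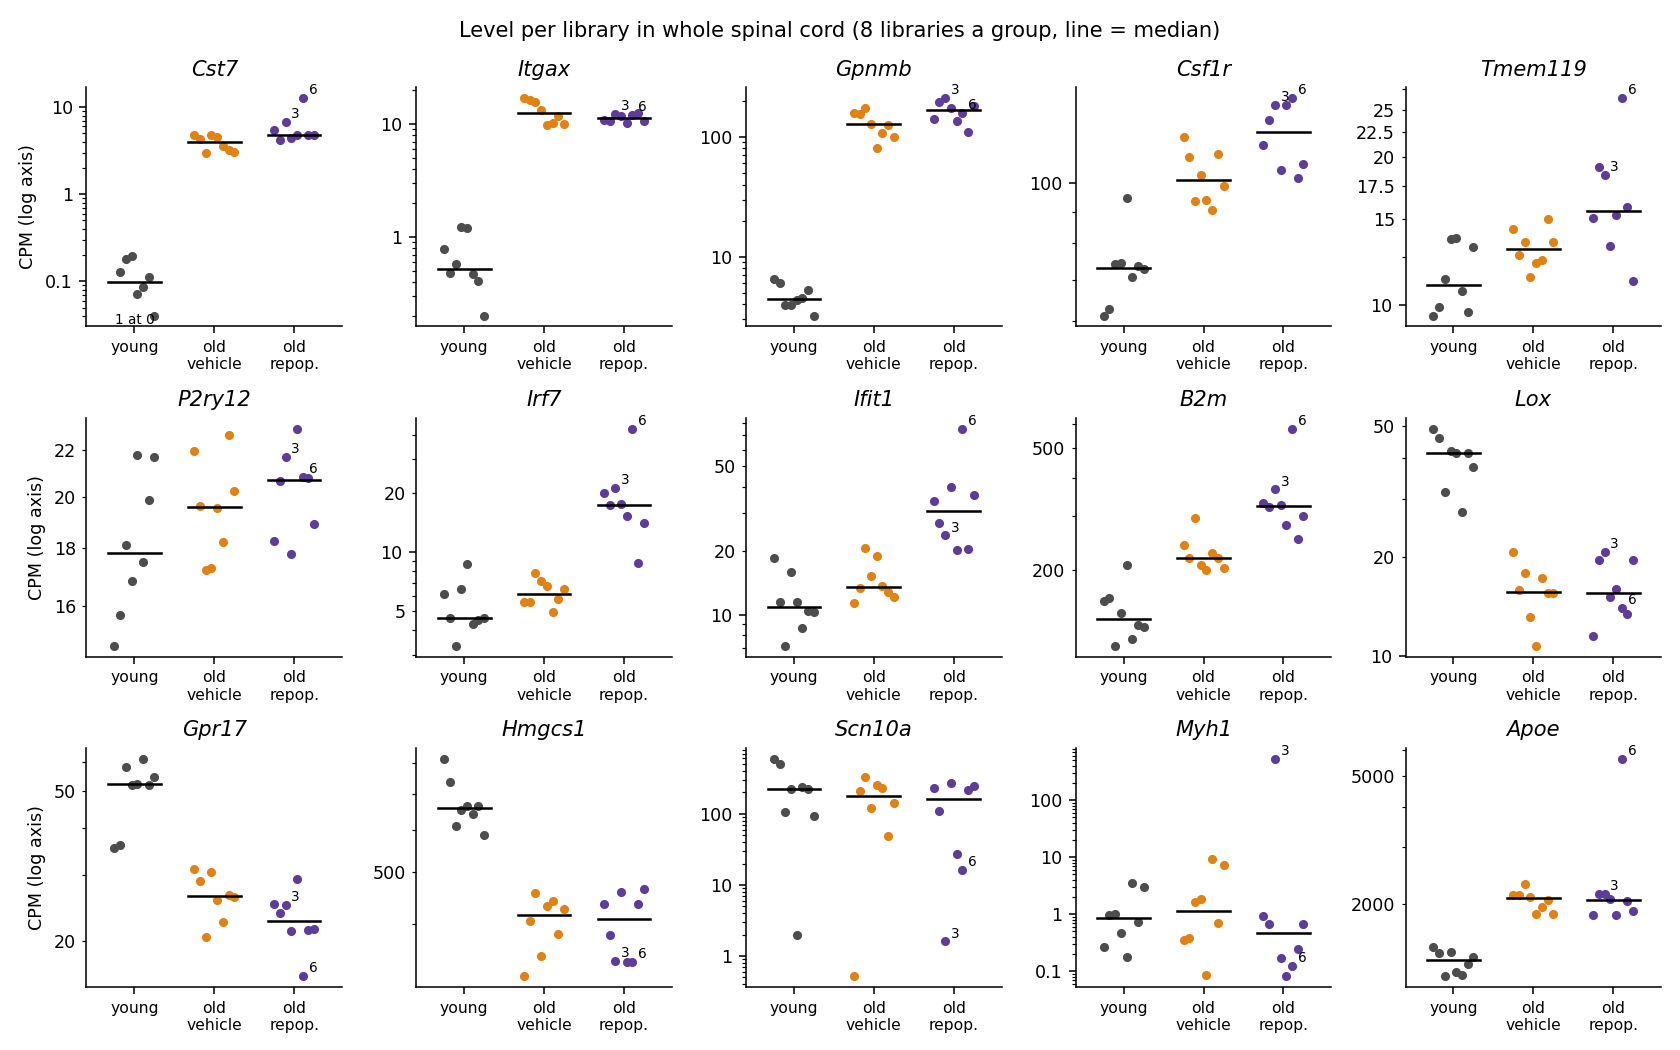
Level of 15 genes in every cord library, in CPM on log axes, for young, old vehicle and old repopulated cord (8 libraries each), where the line is the median and the numbers 3 and 6 mark those repopulated libraries. Itgax and Gpnmb are raised in both old groups, Irf7 and Ifit1 in repopulated cord above old vehicle cord, Lox and Hmgcs1 are low in both old groups, and Myh1 is high in repopulated library 3.

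Of 15 receptors for uptake and their adaptors 14 rose and none fell, at a median of log2 1.79. Cd68, a lysosomal membrane protein of phagocytes, had 4.75, 6.10 and 7.48 CPM in young and 33.2, 37.2 and 62.5 CPM in repopulated cord (log2 2.76 ± 0.13, adjusted p = 2.72e-13, edgeR). Tyrobp, the adaptor DAP12 that carries the signal of Trem2, rose by 2.32 ± 0.16, the scavenger receptor Cd36 by 2.15 ± 0.24, and the inhibitory Fc receptor Fcgr2b by 1.86 ± 0.12. The groups did not overlap in any of these 4 genes. The highest value of Cd36, 34.4 CPM, was that of library 3, which carried muscle genes, against a repopulated median of 12.2 CPM. Over 29 alternatives of the analysis its log2 value was 1.60 to 2.22. Leaving out libraries 3 and 6 gave the same count, at a median of 1.62. Of 24 lysosomal genes 15 rose and none fell, but the median was only 0.29. Ctss, a protease of phagocyte lysosomes, rose by 2.05 ± 0.15 and Laptm5, a lysosomal membrane protein, by 1.51 ± 0.11. The other members included 9 that were not called.

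Complement genes followed the same direction, with 12 of 19 higher and none lower. C1qc, a chain of the C1q complex that microglia make, ran from 19.98 to 31.5 CPM in young and from 80.4 to 185 CPM in repopulated cord (log2 2.15 ± 0.15, adjusted p = 1.1e-10, edgeR). C3ar1, the receptor for the C3a fragment, rose by 2.17 ± 0.15 and Itgb2, the beta chain of complement receptor 3, by 1.85 ± 0.15. C4b had 88.0, 105 and 146 CPM in young and 280.9, 336.4 and 408.1 CPM in repopulated cord as lowest, median and highest (log2 1.67 ± 0.10), with no overlap. C4b has a close copy in the genome, and how reads shared between such copies were counted is not given in the sources used here.

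Of 26 cytokine and chemokine genes tested, 19 rose and none fell. The monocyte-attracting chemokines Ccl3 and Ccl4 were near the limit of detection in young cord, at 0 to 0.499 and 0.0361 to 0.354 CPM. They reached 0.965 to 2.87 and 0.721 to 1.37 CPM in repopulated cord (log2 3.46 ± 0.39 and 2.67 ± 0.26). Cxcl10, an interferon-induced chemokine for T cells, rose by 2.04 ± 0.27, from a median of 0.988 to 5.04 CPM, and the transmembrane chemokine Cxcl16 by 1.01 ± 0.13. Every repopulated library was above every young library in these 4 genes. Levels were low for much of this list, and 9 of its genes were called higher when genes of low mean level were left out before testing.

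Interferon genes were higher in repopulated cord than in young cord and, for part of them, than in old vehicle cord. Of 32 genes tested 30 rose against young cord and none fell, at a median of log2 1.33, and the groups did not overlap in 23. Old vehicle cord, compared with the same young libraries, had 10 of the 32 higher at a median of 0.35. Between repopulated and old vehicle cord, 16 of the 32 were higher, where 27 genes were called among all 18271 (0.148%). The 2 not called against young cord were Stat2, a subunit of the interferon-activated factor, and Cmpk2, a nucleotide kinase.

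The DNA element on which that factor acts was looked for in the RefSeq promoters of these genes. The table (GRCm38.p6) gives 250 bases before and 50 bases after each start site. The letters GAAA, any 2 bases and GAAA again, on either strand, occurred in 3.44% of all 32851 windows of this length. At least 1 window held them in 12 of the 21 tested interferon genes with an entry (57.1%). The share was 10.7% of genes called higher against young cord (107 of 997), 3.05% of genes called lower (12 of 393) and 3.69% of all genes tested (517 of 13993). A match describes the letters and does not show a site in use. The 250 bases before the start site are printed for 3 interferon genes that hold the letters and were called higher against both young and old vehicle cord. Each runs 5′ to 3′ on the strand of its gene, with the matches in capitals. The window of Ifit1 lies at chr19:34640639-34640888 on the plus strand, that of Ifit3 at chr19:34583279-34583528 on the plus strand and that of Oas1a at chr5:120907526-120907775 on the minus strand.
Ifit1: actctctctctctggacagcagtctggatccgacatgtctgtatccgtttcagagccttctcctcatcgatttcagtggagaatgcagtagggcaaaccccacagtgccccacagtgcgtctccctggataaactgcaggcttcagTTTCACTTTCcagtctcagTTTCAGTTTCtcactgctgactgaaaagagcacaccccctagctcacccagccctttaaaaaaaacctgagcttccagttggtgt
Ifit3: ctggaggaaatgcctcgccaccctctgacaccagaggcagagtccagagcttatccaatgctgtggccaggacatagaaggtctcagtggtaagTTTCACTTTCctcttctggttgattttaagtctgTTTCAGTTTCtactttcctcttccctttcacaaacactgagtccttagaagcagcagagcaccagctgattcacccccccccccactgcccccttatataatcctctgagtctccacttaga
Oas1a: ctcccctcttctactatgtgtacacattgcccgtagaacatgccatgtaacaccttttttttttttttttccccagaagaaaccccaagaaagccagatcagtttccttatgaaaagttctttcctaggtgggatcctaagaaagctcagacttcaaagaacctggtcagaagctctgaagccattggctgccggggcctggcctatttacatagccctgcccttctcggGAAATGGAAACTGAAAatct

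In Ifit1 the first match begins 104 bases before the start site and in Ifit3 156 bases before it, and in both the letters are on the strand opposite to the gene, in 2 matches each. In Oas1a 2 overlapping matches on the gene's own strand begin 20 bases before the start site. Ifit1 encodes a protein that binds foreign RNA, Ifit3 a member of the same family, and Oas1a a synthetase that makes the messenger activating RNase L. Ifit1 had a lowest, median and highest level of 7.12, 10.9 and 18.5 CPM in young, 11.4, 13.5 and 20.5 CPM in old vehicle and 20.3, 30.7 and 75.4 CPM in repopulated cord. It was higher in repopulated than in young cord by log2 1.56 ± 0.24 (adjusted p = 3.71e-05, edgeR), and without library 6, which held the highest value, by 1.31. Ifit3 ran from 13.3 to 28.8 CPM in young and from 33.8 to 126 CPM in repopulated cord (log2 1.55), and Oas1a from 1.01 to 1.62 and from 2.45 to 7.11 CPM (log2 1.59). Ifit3 has a near copy, Ifit3b, which rose by 1.59 ± 0.16, and reads shared by the pair may be split between them.

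Irf7, the factor that amplifies interferon production, had a lowest, median and highest level of 3.32, 4.63 and 8.77 CPM in young, 4.96, 6.13 and 7.84 CPM in old vehicle and 8.83, 17.5 and 42.9 CPM in repopulated cord. Every repopulated library lay above every library of the other groups, the narrowest gap being that to the highest young library. The fitted differences were log2 1.88 ± 0.23 against young (adjusted p = 1.88e-06), 1.65 against old vehicle (adjusted p = 0.00304) and 0.23 between old vehicle and young (adjusted p = 0.758, all edgeR). Ifi27l2a, a small interferon-induced membrane protein, rose by 1.84 ± 0.30, Ifi44, an interferon-induced antiviral protein, by 1.77 ± 0.22 and Usp18, the protease that removes the ubiquitin-like Isg15 and dampens the response, by 1.45 ± 0.20. Against old vehicle cord these 3 were higher by 1.67, 1.32 and 1.10. Trim30a, Lgals3bp and Herc6 rose by 1.46 ± 0.13, 1.34 ± 0.12 and 0.85 ± 0.07 against young cord and by 0.72, 0.80 and 0.41 against old vehicle cord. The count against young cord was 31 of 32 without libraries 3 and 6 and the median 1.24.

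**Figure D3:**
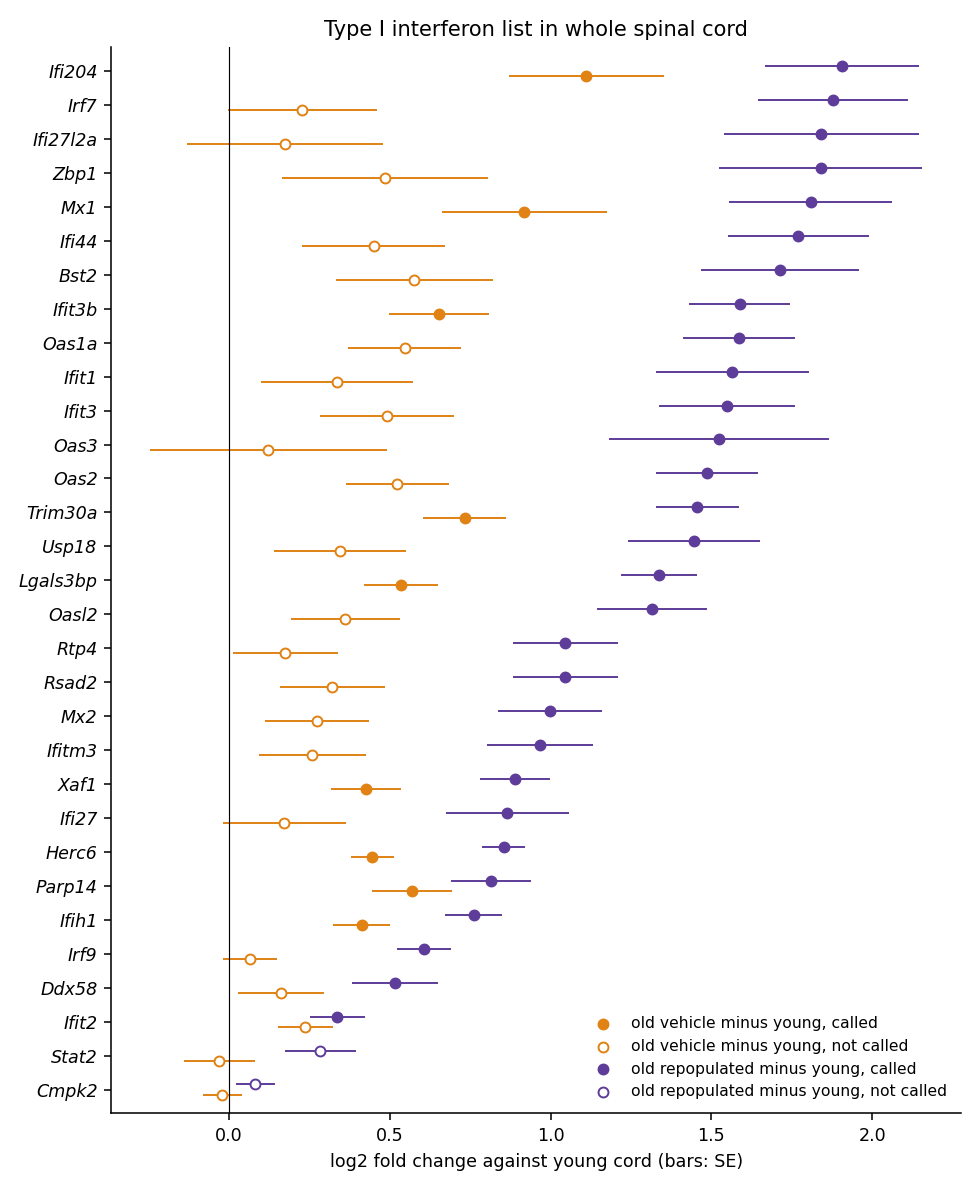
The interferon genes tested, all but 1 of 32, in order of their change in repopulated cord, with the log2 fold change against young cord of old repopulated (purple) and old vehicle (orange) cord and bars of 1 SE. Filled points were called, and over all 32 genes these were 30 in repopulated and 10 in old vehicle cord, which share the young libraries.

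The 27 genes higher in repopulated than in old vehicle cord included Gbp10, Ifi27l2a, Irf7, Ifi44, Gm5431, Ifit1, Usp18, Ifit3, Oas1a, Oas2, Oasl2, Ifit3b, Gbp3, Rtp4, Slfn9, Lgals3bp, Trim30a, Irgm1, Grn, Fcrls, Trim34a, Irf9, Gm6548, Parp9, Herc6 and H2-T22. Of the 27, 16 are on the interferon list. The others include Grn, which encodes the lysosomal protein progranulin, and the microglial gene Fcrls. The list does not hold every gene that interferon can raise, so the others may include more of them. No gene was called lower, with 230 lower at an unadjusted p under 0.05, and DESeq2 called 4 lower and limma-voom 1. Leaving out libraries 3 and 6 gave 18 called genes, 14 of them on the interferon list.

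All 14 genes of MHC class I and peptide loading rose, at a median of log2 1.32. B2m, the invariant light chain of class I, had 114, 139 and 208 CPM in young and 254, 324 and 578 CPM in repopulated cord (log2 1.23 ± 0.14, adjusted p = 5.38e-07, edgeR). Nlrc5, the activator of class I genes, rose by 1.85 ± 0.18, and Tap1, a peptide transporter of the endoplasmic reticulum, by 1.34 ± 0.16. The class I gene H2-Q4 rose from a median of 13.4 to 41.2 CPM (adjusted p = 5.38e-07, edgeR). No repopulated library overlapped the young range in these 4 genes. H2-Q4 belongs to a cluster of closely similar class I genes whose reads may be shared. Old vehicle cord had 11 of the 14 higher against young, at a median of 0.64. None of the 14 was called between repopulated and old vehicle cord, at a median of 0.61. H2-T22, a class I gene outside this list, was called higher in repopulated than in old vehicle cord (log2 0.32, adjusted p = 0.0484, edgeR). Of 10 MHC class II genes 1 rose, H2-Ob, a chain of an inhibitor of peptide loading, and its call was lost in 11 of the 16 fits that left out 1 library. Cd74, the class II invariant chain, ran from 39.4 to 90.8 CPM in young and from 21.1 to 64.2 CPM in repopulated cord, with log2 -0.53 (95% interval -0.98 to -0.08, adjusted p = 0.126).

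Reactive astrocyte genes rose in part, 7 of 20 with 1 lower. Gfap, the intermediate filament of astrocytes, had 445.8, 692.8 and 907.1 CPM in young and 1082, 1392 and 2144 CPM in repopulated cord (log2 1.10 ± 0.15, adjusted p = 5.23e-06, edgeR), with no overlap. Aspg, an asparaginase, rose by 1.36 ± 0.13, and Timp1, an inhibitor of metalloproteinases, by 2.65 ± 0.26. Genes of astrocyte identity stayed closer to young cord. The only one called of 14 was Sox9, a transcription factor, at log2 0.36 ± 0.09, and the list median was 0.07.

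Markers of other immune cells were mixed. Of 19 T and NK cell genes 7 passed the filter, and 5 of these were called: Cd8a, a coreceptor of cytotoxic T cells, Ccl5, Cxcr6, the receptor for Cxcl16, the granule protein Nkg7 and the T cell kinase Lck. Some, such as Cd8a, passed only through the groups where they are higher. Lck, at 0.807 to 1.43 CPM in young cord, reached the filter's count in the young libraries too. Cd8a ran from 0 to 0.285 CPM in young and from 0.240 to 1.64 CPM in repopulated cord (log2 2.11 ± 0.48), and Cd3e, Cd3d and Cd3g, which define T cells, did not pass the filter. The summed level of the list had a median of 6.55 CPM in repopulated cord and its highest value was 11.4 CPM. Of 13 neutrophil genes the only one called was Csf3r, which microglia also express, and none of 10 monocyte genes or of 7 B and plasma cell genes tested was called. Among 13 genes of macrophages at the borders of the nervous system 2 rose, Ms4a7 and the scavenger receptor Stab1 (0.96 ± 0.11), and 4 fell. Stab1 is not confined to these cells here, with 321 TPM in young sorted microglia and 16.5 TPM in old vehicle cord. Mgl2, a galactose-binding lectin of these cells, fell by 1.95 ± 0.16, from 3.36 to 6.02 CPM in young to 0.770 to 1.74 CPM in repopulated cord. Cd163, the scavenger receptor for haemoglobin, fell by 0.72 ± 0.18 with overlapping ranges. Without young library 2 the falls numbered 2.

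**Figure D4:**
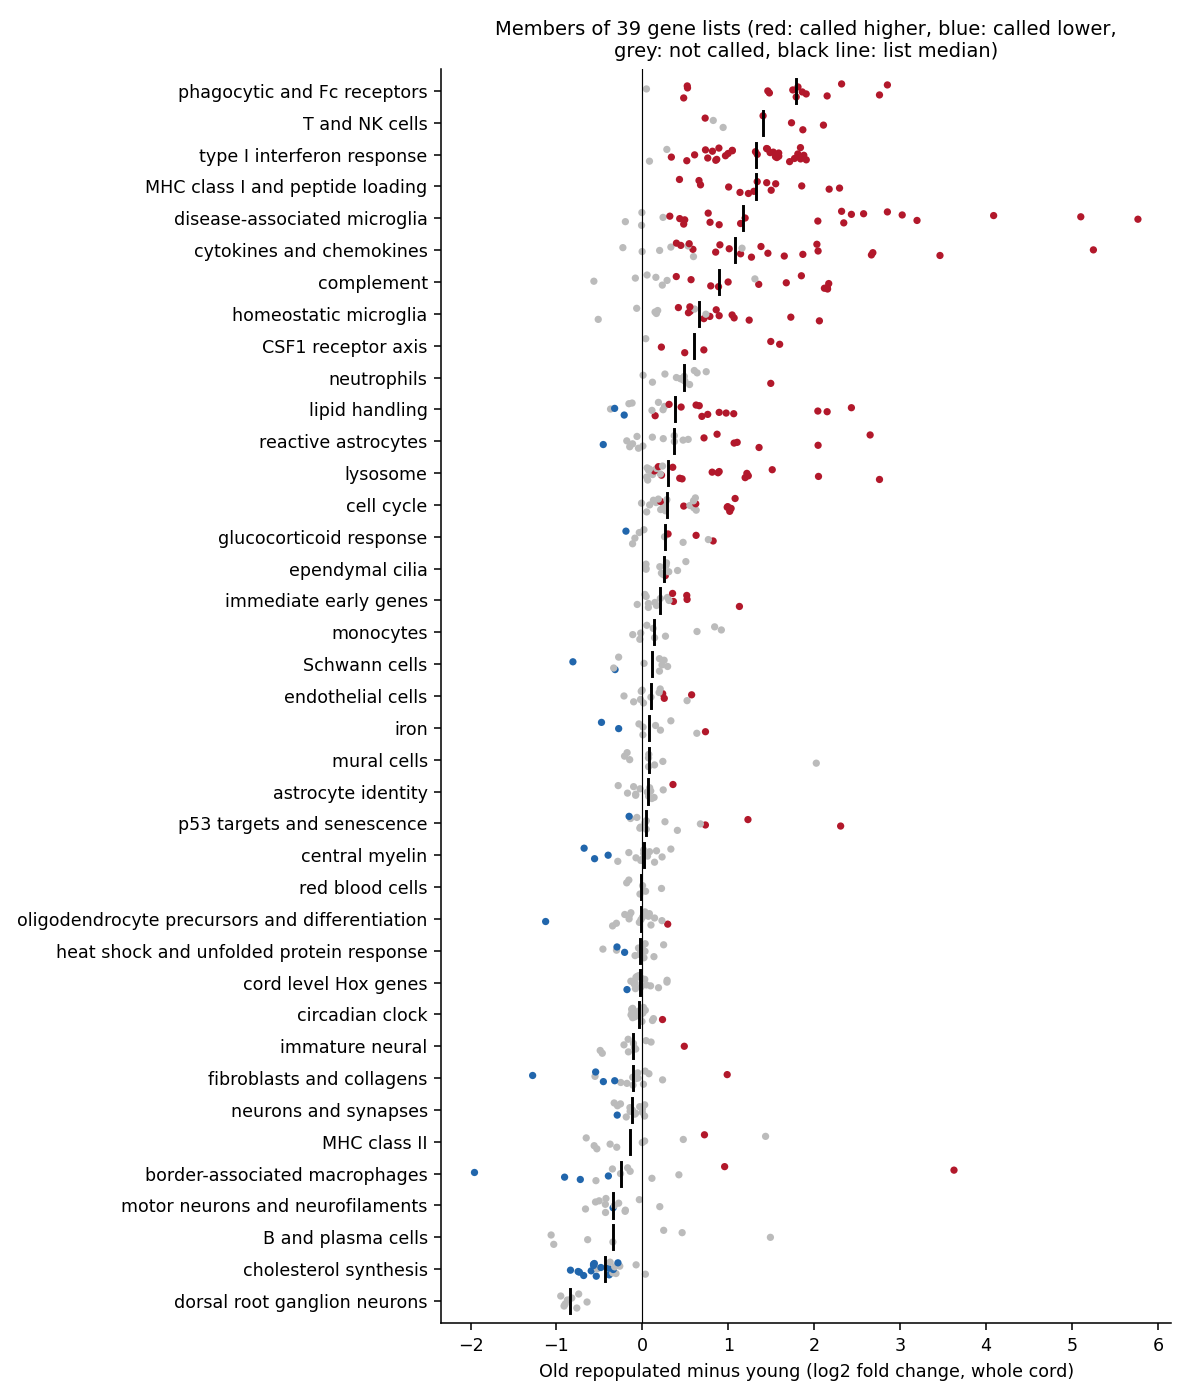
Log2 fold change, old repopulated minus young, of every tested member of 39 gene lists, ordered by list median (black line), where red points were called higher, blue points lower and grey points neither. The lists of microglial, interferon and class I genes lie to the right, cholesterol synthesis lies to the left, and the dorsal root ganglion list lies furthest left with 0 of 8 members called.

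Genes of cholesterol synthesis were lower in repopulated cord, 14 of 22 with none higher, at a median of log2 -0.44. Hmgcs1, which makes the precursor of mevalonate, had a lowest, median and highest level of 586, 660 and 814 CPM in young and of 339.6, 408.8 and 464.7 CPM in repopulated cord (log2 -0.75 ± 0.09, adjusted p = 6.99e-07, edgeR). Cyp51, which removes a methyl group from lanosterol, had log2 -0.54 ± 0.05, Sc5d, a late desaturase of the pathway, -0.57 ± 0.07 and Insig1, the sterol-sensing retention protein, -0.34 ± 0.03. All 8 repopulated libraries lay below the lowest young library in each of the 4. Old vehicle cord had 15 of 22 lower against young, none was called between repopulated and old vehicle cord, and 15 were lower than young without libraries 3 and 6. Genes that move and store lipid went the other way, 13 of 22 higher and 2 lower. Lpl, which frees fatty acids from lipoproteins, rose by 2.43 ± 0.24 and Ch25h, which makes the oxysterol 25-hydroxycholesterol, by 2.04 ± 0.21. Plin2, the coat protein of lipid droplets, rose from a median of 22.2 to 36.2 CPM (log2 0.66 ± 0.09).

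Myelin genes as a group were near young levels, with 3 of 17 lower, none higher and a median of 0.02. The 3 that fell were Ugt8a and Fa2h, enzymes of the myelin lipid galactosylceramide (log2 -0.68 ± 0.09 and -0.56 ± 0.07), and Mal, a proteolipid of myelin rafts (-0.40 ± 0.07). Ugt8a went from 291.1 to 432.4 CPM in young to 163 to 260 CPM in repopulated cord. Mbp, myelin basic protein, ran from 7358 to 11324 CPM in young and from 8272 to 13335 CPM in repopulated cord (log2 0.04, 95% interval -0.15 to 0.24). Without library 6 the falls on this list numbered 5. Among 17 genes of oligodendrocyte precursors and their differentiation, Gpr17, a receptor of cells about to differentiate, fell by 1.13 ± 0.12, from 35.4, 52.2 and 61.0 CPM to 16.2, 22.7 and 29.2 CPM with no overlap. Cspg4, the proteoglycan NG2 of precursors and pericytes, rose by 0.29 ± 0.08, and the median of the list was -0.02.

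Of 10 genes of Schwann cells, which make the myelin of nerve roots, 2 fell, among them the claudin Cldn19 (log2 -0.32 ± 0.09), and the list median was 0.11. Without library 3 the falls on this list numbered 4 and without young library 1, where the call of Cldn19 was lost, they numbered 1. Lox, the enzyme that cross-links collagen and elastin, had 27.4, 41.5 and 49.0 CPM in young and 11.6, 15.6 and 20.7 CPM in repopulated cord (log2 -1.28 ± 0.14, adjusted p = 2e-07, edgeR). The basement membrane collagens Col4a1 and Col4a2 were lower by -0.45 ± 0.12 and -0.32 ± 0.09 on the log2 scale, and Lum, the collagen-binding proteoglycan lumican, was higher by 0.99 ± 0.16. In all, 4 of 17 fibroblast and collagen genes fell and 1 rose.

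The 10 largest falls at 5 CPM or more held Lox, Gpr17 and 8 others. Mfap4, a microfibril protein, fell by 1.96 ± 0.23, from 3.31 to 8.14 CPM in young to 0.874 to 2.15 CPM in repopulated cord, and was the largest of them. Itih2, a hyaluronan-binding inhibitor chain, fell by 1.28 ± 0.22 and Cnmd, the cartilage protein chondromodulin, by 1.25 ± 0.26. Slc13a4, a sulphate transporter, and Slc6a20a, a proline transporter, both known from leptomeninges, fell from medians of 16.4 and 13.4 CPM to 8.76 and 7.00 CPM, and Papln, a matrix protein related to proteases, by 0.89 ± 0.20. Sfrp4, a secreted Wnt antagonist, had a lowest, median and highest level of 2.93, 4.65 and 30.5 CPM in young cord. In repopulated cord these were 2.69, 4.31 and 5.35 CPM. Its call (log2 -1.38 ± 0.42, adjusted p = 0.0368, edgeR) was lost in 7 of the fits without 1 library. Plcxd3, a phospholipase-like gene, had a log2 value of -1.09 ± 0.35 (adjusted p = 0.0461) and lost its call in 10 of them.

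Neuronal genes showed little that passed the test. Of 16 genes of neurons and synapses 1 fell, and the median was log2 -0.12. Of 13 genes of motor neurons and neurofilaments 1 fell, Mmp9, a metalloproteinase of fast motor neurons (-0.34 ± 0.10), at a median of -0.34, and its call was lost without young library 4 or 8. Chat had 9.86, 16.8 and 20.2 CPM in young and 6.93, 14.6 and 16.9 CPM in repopulated cord (log2 -0.20, 95% interval -0.50 to 0.09, adjusted p = 0.374). Falls on the motor neuron list numbered 4 without repopulated library 4 or without young library 5. None of the 8 dorsal root ganglion genes was called, at a median of -0.85, which was -0.46 without libraries 3 and 6. The spread between libraries was too wide to resolve that size, with an SE of 0.83 for Scn10a. With the ganglion level of each library as a covariate, 1873 genes were called, 1687 of them among the 1839.

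Of 25 cell cycle genes 8 were higher and none lower, at a median of log2 0.28. Top2a, the topoisomerase of dividing cells, had 1.63, 2.85 and 3.53 CPM in young and 4.37, 5.02 and 8.35 CPM in repopulated cord (log2 1.08 ± 0.19, adjusted p = 0.00018, edgeR). Cdk1, the mitotic kinase, rose by 0.99 ± 0.22, and Cdc20, an activator of the anaphase complex, by 0.99 ± 0.14. Mcm3, a subunit of the replication helicase, rose by 0.62 ± 0.09, and none of these 4 overlapped between groups. The count was 5 without any 1 of repopulated library 3 and young libraries 2, 3, 6 and 7, and 6 without repopulated libraries 3 and 6. Old vehicle cord had 5 of 25 higher against young. Among p53 and senescence genes, Cdkn2a, which encodes the cell cycle inhibitor p16, rose by 2.31 ± 0.28, from 0.181 to 0.699 CPM to 1.14 to 4.12 CPM. Cdkn2b, the inhibitor p15, rose by 0.73 ± 0.19, while 10 of 14 were not called.

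Other lists held few calls. Of 15 immediate early genes 5 rose, led by the stress factor Atf3 at log2 1.13 ± 0.17, and 2 of 14 chaperone genes fell, Hsph1 by 0.30 ± 0.05 and Hsp90aa1 by 0.21 ± 0.05. Tfrc, the transferrin receptor, fell by 0.48 ± 0.05, from 155 to 183 CPM to 106 to 130 CPM, and the ferritin light chain Ftl1 rose by 0.73 ± 0.17, or by 0.48 without library 6. The endothelial genes Ly6c1, Pecam1 and Esam were 3 of 13 called higher, by 0.57, 0.24 and 0.25. None of 9 mural cell genes and none of 6 red blood cell genes was called, and of 12 ependymal, 16 circadian and 16 Hox genes 1 each passed the test, Ak7, Bhlhe41 and Hoxa10. Among the 16 fits that left out 1 library, the call was lost in 10 for Ak7, in 6 for Esam and in 2 for Hoxa10 (without young library 3 or 8). The metallothionein Mt1, on the glucocorticoid list, was called at log2 0.82 ± 0.27 with 664 CPM in library 6 against a repopulated median of 144 CPM, and its log2 value was 0.29 without that library. Its call was lost in 9 of the 16 fits.

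Old vehicle cord, set against the same young libraries, had 1123 genes called (6.15%), 892 higher (4.88%) and 231 lower (1.26%). Since both comparisons share the young libraries, their values are only placed side by side. Cst7 was at log2 5.77 in repopulated and 5.17 in old vehicle cord, Gpnmb at 5.10 and 4.76, Itgax at 4.09 and 4.28, Mmp12 at 6.85 and 6.97, and Cd68 at 2.76 and 2.44. Lox was at -1.28 and -1.32, Hmgcs1 at -0.75 and -0.74, and Gpr17 at -1.13 and -0.92. None of these 8 genes was called between repopulated and old vehicle cord, where for example Itgax had log2 -0.19 (adjusted p = 0.718, edgeR). The 3 cord groups share 1 estimate of the spread, and leaving out repopulated library 6 raised the old vehicle count to 2109.

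The same comparison in sorted brain microglia differed from that in cord for 5653 of 19110 genes tested (29.6%), by an interaction test over both tissues. Of these, 4486 (23.5%) had the higher change in cord and 1167 (6.11%) the lower. The median difference of all genes was 0.27 on the log2 scale with the scaling used here and 0.09 with DESeq2's size factors, which gave 2683 and 1835, so single values are read against that shift. Cord values also move with how many microglia the tissue holds, and region differs as well as cell type, so these cannot be told apart. All 20 genes of resting microglia had a higher change in cord, under each of the 3 scalings, with a median difference of 1.26. In sorted microglia 17 of the 20 fell and none rose, where 33.5% of all genes tested were called lower and 10.8% higher, at a median of -0.247. Csf1r was at log2 0.72 in cord and -0.50 in microglia, Cx3cr1 at 1.07 and -1.10, Tmem119 at 0.55 and -0.87, and P2ry12 at 0.15 and -1.15. Cord values of single genes, here and in the next paragraph, come from the fit to cord libraries alone. Those of microglia come from the fit over both tissues, so a pair need not subtract to its interaction value.

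Single genes lay on both sides of this difference. Cd68, Fcrls, Nckap1l and Cyth4 were raised in cord, by log2 2.76, 1.73, 1.35 and 1.08, and stood at -0.01, -0.98, -0.54 and -0.99 in sorted microglia. Nckap1l encodes a subunit of the actin-regulating WAVE complex, and Cyth4 an exchange factor for Arf proteins. Spp1, Axl, Lox and Chst2, a sulphotransferase, had higher changes in microglia, at 5.37, 3.93, 4.18 and 2.95, against 0.77, 0.48, -1.28 and -0.19 in cord. Of 24 disease-associated genes, 8 had a higher and 9 a lower change in cord by the interaction test. Over all genes tested these shares were 23.5% and 6.11%. The median difference of the list was -0.03, against 0.27 over all genes. Of the interferon genes, 30 of 32 rose in sorted microglia, against 10.8% of all genes tested, at a median of 2.14, and 18 had a lower and 3 a higher change in cord. Cell cycle genes had 16 of 25 with a lower change in cord and 1 with a higher one, at a median of 1.92 in sorted microglia. Cholesterol synthesis had 13 of 22 lower in cord, and its median in microglia was 0.10.

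**Figure D5:**
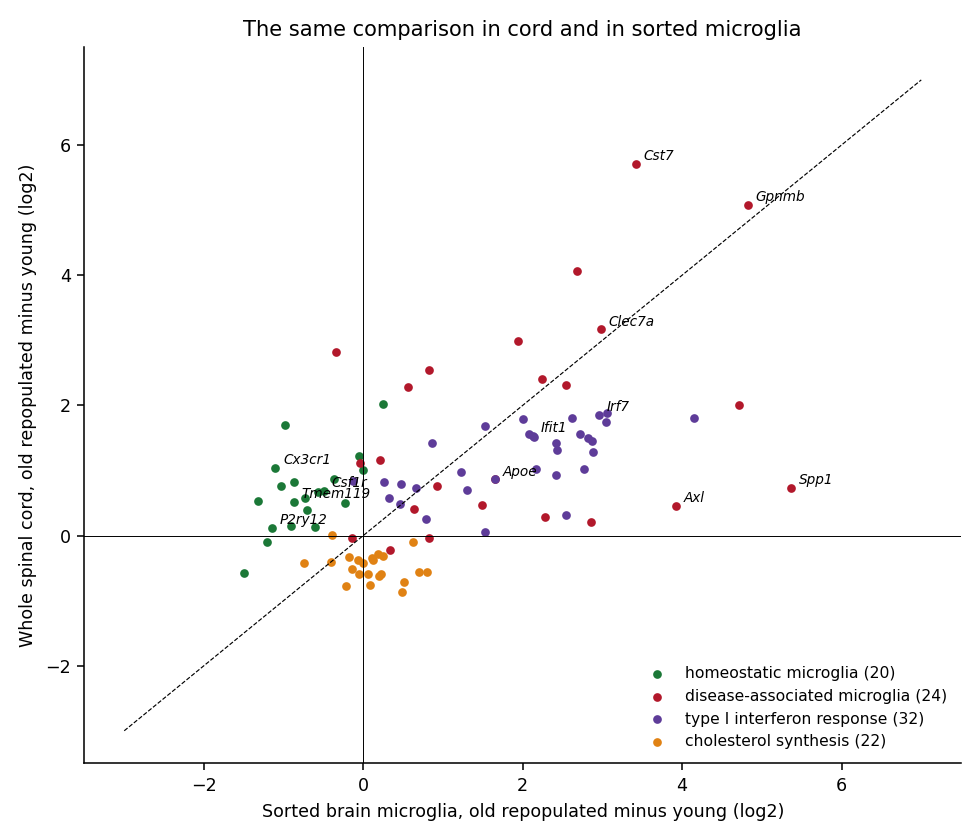
Log2 fold change, old repopulated minus young, in sorted brain microglia and in whole cord for members of 4 gene lists, where the dashed line marks equal values and each axis comes from 1 fit over both tissues. The resting genes (green) lie above the line, Spp1 and Axl lie far to the right of it, and the cholesterol genes (orange) lie below zero in cord and around zero in microglia.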

How the data were processed

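Polyadenylated RNA was sequenced with an unstranded kit, and STAR 2.5.2b and GRCm38.p5 are listed, without their roles, in the notes on processing that the submitters gave. Which program counted reads, and over which gene models, was not stated in any source used here. The authors deposited raw counts per gene and TPM values. The TPM values equal the counts divided by gene length and rescaled in 100% of values, and were used for the microglia enrichment and for alternatives on log2(TPM + 1) and log2(TPM + 0.1). Of 35870 genes, 18271 passed filterByExpr (count minimum 10, total 15) over 24 cord libraries in 3 groups. Counts were fitted with edgeR 4.0.16 (TMM scaling, quasi-likelihood test, Benjamini-Hochberg threshold 0.05) in R 4.3.3, with limma 3.58.1 and DESeq2 1.42.0 as alternatives, and Python 3.11.15 was used for the exact permutation tests and promoter letters. CPM use the scaled library sizes, and a rise or fall is a log2 value from the fit with its SE. The interaction fit took all 48 libraries and 19110 genes. On simulated counts with known changes in this comparison (18134 genes), 73.1% of genes changed by log2 0.5 were called, 94% at 1 and 100% at 2, with 5 false calls. No pair of cord libraries of 1 group agreed within counting noise (chi-square per gene of 3.41 or more in 84 pairs). Counts limit precision at low levels.

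Named genes were the 10 largest rises and falls of at least 5 CPM, up to 4 called members of each of 39 lists (593 genes) with the smallest adjusted p, a panel of 13 genes, the 5 largest rises against old vehicle cord, and 4 genes on each side of the interaction. Members and lists were chosen with earlier results of these data known, so lists carry counts and medians and no test. Promoter sequences came from RefSeq. The FPKM values were not used. Values of a few named genes are not reported here, and counts include them.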

Additional observations from a re-analysis of the deposited data

Results flagged for a closer look

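A sample far from the other 7 of its group, by Dixon's test at the 95% level, was looked for in 266 groups of 8 libraries (126 named genes in CPM and 7 library measures, in young and in repopulated cord). It was found in 49 (18.4%), where chance gives about 1 in 20. Repopulated library 6 was the sample in 31 of them and repopulated library 3 in 8.

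In repopulated library 6 the highest values were those of Cst7 (12.7 CPM), Timp1 (17.5), Tyrobp (90.5), C1qc (185.5), Ifit3b (44.4), Fcgr3 (34.9), B2m (577.9), Cxcl16 (21.3), Cdk1 (3.18), Mt1 (664.3), Ftl1 (1059), Lck (3.00), Ly6c1 (70.3), Junb (19.5), Esam (40.6), Cyp51 (133.0), Aif1 (30.5), Cx3cr1 (118.8), Apoe (5643), Mbp (13340), Irf7 (42.9), Ifi27l2a (32.8), Ifit1 (75.4), Usp18 (15.2) and Chst2 (77.1). The lowest values in that library were those of Ireb2 (41.7 CPM), Col4a1 (86.4), Sc5d (85.4) and Chat (6.93). Its ribosomal protein share was 1.892% and its mitochondrial share 2.918%, against medians of 0.7089% and 3.983%.

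In repopulated library 3 the muscle genes Myh1 (532 CPM), Myh2 (261.3), Mb (137.2) and Ckmt2 (46.6) were highest, with a summed muscle level of 3401 CPM, as were Cd36 (34.4), Plin4 (15.4) and Mcm3 (8.82).

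Young library 5 was highest for Ccl3 (0.499 CPM), Ctss (81.1), Itgb2 (10.02), Ifit3b (12.3), Aif1 (4.21), C4b (146.5), Csf1r (94.6) and Nckap1l (14.6) and lowest for the mean log2 level of the ganglion genes (-0.37). Young library 7 was highest for Mmp12 (0.184 CPM).

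The change in repopulated against young samples differed between cord and sorted microglia by the interaction test (edgeR, log2 values, cord minus microglia). It was higher in cord for Aif1 (1.77), Csf1r (1.18), Cd68 (2.73), Fcrls (2.68), Cx3cr1 (2.14), Tmem119 (1.39), P2ry12 (1.27), Nckap1l (1.87) and Cyth4 (2.04). It was lower in cord for Lox (-5.49), Apoe (-0.79), Spp1 (-4.64), Axl (-3.48) and Chst2 (-3.17).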

How the results depend on the processing

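Under 29 alternatives, 92 of 126 named genes kept their side of the threshold, and their direction where called. Alternatives in which a gene was not tested were left out for that gene. Genes not called could change sign, as Mbp did (log2 -0.08 to 0.08). Counts of genes higher and lower in repopulated than in young cord were 1522 and 276 with total-count scaling, 1232 and 325 with no filter on low counts, 1509 and 877 with DESeq2, 1737 and 995 with limma-voom, and 818 and 196 (1014 in all) on log2(TPM + 1). They were 813 and 175 (988) on log2(TPM + 0.1), and 1020 and 191 (1211) with only these 2 groups in the fit. Leaving out 1 library at a time gave 1507 to 2561 called genes, 1134 to 1694 higher and 353 to 867 lower, the highest without repopulated library 6. With the replicate number as a block 1408 genes were called, 1102 higher and 306 lower. Same-numbered young and repopulated cord libraries deviated together with correlations of -0.315 to 0.431. Of the 8 repopulated libraries, 2 correlated best with their own number. Whether the numbers pair samples cannot be decided from these values, which cover only those groups. Against old vehicle cord the block gave 19 called genes, and 5740 in the interaction. Old vehicle against young cord had 390 lower with DESeq2, 2430 called (1573 higher, 857 lower) with limma-voom, 89 and 82 lower on the 2 TPM scales, 2109 called (1428 and 681) without repopulated library 6 and 2233 (1437 and 796) without libraries 3 and 6, an alternative chosen after seeing the data, as was the ganglion covariate. Repopulated against old vehicle cord had 66 called with DESeq2 (62 higher, 4 lower), 53 with limma-voom (52 higher, 1 lower), and 13 and 10, all higher, on the TPM scales. DESeq2's size factors gave 2683 and 1835 in the interaction. The 4 muscle genes reversed, in the order DESeq2, limma-voom, without libraries 3 and 6, and without library 3: Myh1 at -1.423, -0.5054, -1.487 and -1.608, Myh2 at -2.091, -2.365, -2.836 and -2.587 (and -0.2294 on log2(TPM + 0.1)), Mb at -0.4446, -0.1918, -0.6079 and -0.4957, and Ckmt2 at -0.9205, -0.3915, -1.118 and -0.9721. Leaving out 1 library at a time gave them -1.608 to 6.147, -2.587 to 5.427, -0.4957 to 4.319 and -0.9721 to 4.191. Library 3 alone held high levels of these genes, and the cause of the other shifts was not tested. At young levels near 0 CPM, as for Mmp12, Cst7 and Ccl3, fold sizes rest on few counts.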
